A study of Mus musculus with 91 samples.

Results

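Cadherins are calcium-dependent membrane proteins that join neighbouring cells, usually by binding the same or a closely related cadherin on the next cell. Type I classical cadherins (Cdh1 is E-cadherin, Cdh2 N-cadherin, Cdh3 P-cadherin) and type II classical cadherins (such as Cdh6 and Cdh11) link to the actin cytoskeleton through catenins. Non-clustered protocadherins are encoded by single genes rather than by the clustered families and are best known from the developing nervous system, where they act in cell sorting and migration. In the fetal gonad, germ cells, supporting cells that become Sertoli or pre-granulosa cells, interstitial or stromal cells and endothelial cells sort out from one another around the time of sex determination.

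The members were all genes with a symbol made of Cdh or Pcdh and a number, with or without a final x or y, that had a transcript cluster (the summarised probes of 1 array feature) naming that gene alone, with the endothelial cadherin Cdh5 left out. There were 34 such genes among 19938 genes with a cluster of their own, and 38 clusters, since Cdh18, Cdh24, Pcdh9 and Pcdh15 had 2 each. The cluster with the highest mean over the 90 sorted-cell arrays stood for the gene. Levels are log2 expression values as normalised by the authors, and a cluster was tested where it exceeded 6 in at least 2 of the 3 arrays of at least 1 group. Of the 34 members, 29 passed: all 5 type I classical, 10 of 12 type II classical and 3 of 5 other cadherins, all 4 delta-1 protocadherins, 4 of 5 delta-2 protocadherins and all 3 other protocadherins. Cdh7, Cdh17, Cdh19, Cdh26 and Pcdh10 did not pass, with group means in the 4 main populations between 4.37 and 5.86.

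Expression was measured on 3 arrays for each of 30 groups, 5 reporter populations of XX and XY mouse gonads, each at 3 stages (E11.5, then E12.5, then E13.5). Supporting cells carried Sry-EGFP, except XY cells after E11.5, which carried Sox9-ECFP, so that sex and reporter cannot be told apart there, nor stage and reporter in XY cells. The interstitial/stromal population was labelled stromal in XX and interstitial in XY gonads. Oct4-EGFP marked germ cells, Flk1-mCherry endothelial cells, and αSma-EYFP a further somatic population. The Sry, Sox9 and Oct4 reporter embryos came from CD-1 and C57BL/6J parents, and the homozygous Flk1-mCherry line was CD-1, while αSma-EYFP was FVB by the labels and a mix of FVB and CD-1 by the methods. Each array held cells from the pooled gonads of 1 or more litters, with the mesonephros left on in germ cell sorts and in part in E11.5 endothelial sorts. By the study's methods the arrays of a group were biological replicates, and the labels do not say which litters each came from. In such sorted samples, fewer cells of a type and less RNA per cell cannot be told apart.

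The labels were set against marker genes. The mean over 6 germ cell markers was 9.97 to 10.99 on the Oct4-EGFP arrays and at most 6.80 on any other array. The mean over 6 endothelial markers was 10.02 to 10.88 on the Flk1-mCherry arrays and at most 7.70 elsewhere. Markers of other cells moved with sex in all 5 populations, and further values stand beside the results they touch. XY Flk1-mCherry arrays at E13.5 had a mean of 10.46 to 10.91 over 4 fetal Leydig cell genes (Cyp11a1, Cyp17a1, Star and Hsd3b1), against 5.49 to 5.66 in XX. XY interstitial arrays had a mean of 8.83 ± 0.15 (SD, n = 3) over 5 Sertoli cell genes at E12.5, against 6.67 ± 0.12 in XX stromal arrays, and of 9.49 to 10.34 over the Leydig genes at E13.5, against 5.60 to 5.77.

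**Figure D1:**
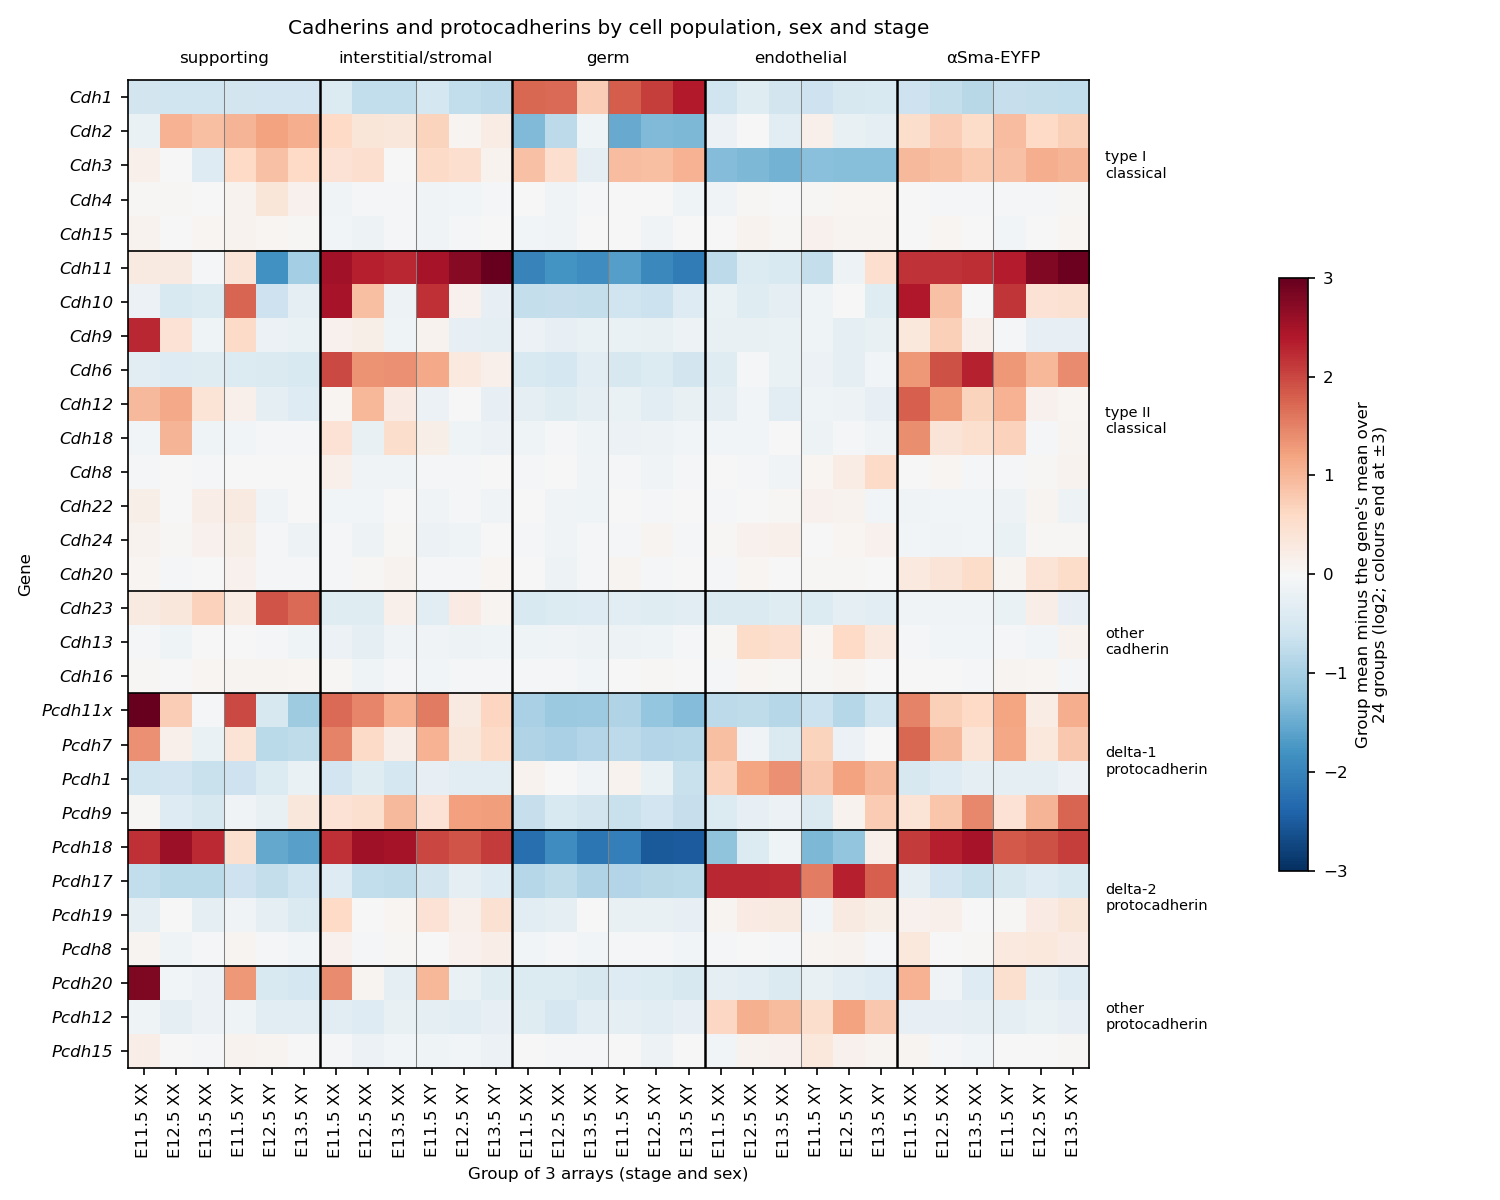
Mean log2 expression of the 29 members that passed the filter (rows, by family) in each group of 3 arrays (columns, by reporter population, sex and stage), as the difference from the gene's mean over the 24 groups of the 4 main populations, with the colours ending at a difference of 3 in either direction. Cdh1 stands out in germ cells, Cdh11 in interstitial/stromal cells and Pcdh17 in endothelial cells, and Pcdh18 is high in XX and low in XY supporting cells after E11.5.

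The widest span between group means belonged to Pcdh18, a delta-2 protocadherin, which ran from 6.00 in E12.5 XY germ cells to 11.10 in E12.5 XX supporting cells. Cdh11, a type II cadherin known from mesenchyme, ran from 6.45 in E13.5 XY germ cells to 11.52 in E13.5 XY interstitial cells. At the other end, 8 of the 29 members (Cdh4, Cdh15, Cdh16, Cdh20, Cdh22, Cdh24, Pcdh8 and Pcdh15) were called in no comparison. On the arrays of the 4 main populations these 8 members lay between 5.71 and 7.77. The share of all clusters called in no comparison was not computed, so 8 of 29 cannot be judged as few or many. A call here is an adjusted p under 0.05 (limma, Benjamini-Hochberg over all 16820 clusters tested) together with a fold change over 1.5.

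Germ cells were set apart by Cdh1. It was the 1 member enriched in germ cells, meaning called higher than in each of the other 3 populations, in all 6 combinations of sex and stage, where 3.56% of all clusters were. Its 18 pairwise folds ran from 2.48 to 8.97, with adjusted p-values of at most 3.42e-15. The 18 germ cell arrays had Cdh1 levels from 7.36 to 9.26 with a median of 8.64, and no array of the other 3 populations exceeded 6.48.

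The levels of 3 type I cadherins in germ cells parted by sex at E13.5. Cdh1 in XX germ cells was 8.07, 8.69 and 8.69 at E11.5, 8.54, 8.53 and 8.32 at E12.5 and 7.66, 7.36 and 7.51 at E13.5. In XY germ cells it was 8.45, 8.64 and 8.65 at E11.5, 8.77, 8.72 and 9.01 at E12.5 and 8.92, 9.26 and 9.24 at E13.5. Every XY array at E13.5 was above every XX array of that stage. The difference was 1.63 ± 0.11 (log2, limma's SE from the spread over all 24 groups, n = 3 against 3), a 3.10-fold higher level in XY (adjusted p = 8.66e-18).

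Cdh3, which neighbours Cdh1 on chromosome 8, showed the same split. Its XX germ cell arrays read 8.75, 9.05 and 8.96 at E11.5, 8.71, 8.45 and 8.47 at E12.5 and 7.60, 7.95 and 7.69 at E13.5. The XY arrays read 8.94, 9.04 and 8.96 at E11.5, 8.98, 9.02 and 8.87 at E12.5 and 9.01, 9.14 and 9.09 at E13.5. XY germ cells were 2.52-fold higher at E13.5 (adjusted p = 2.77e-09), with no overlap.

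Cdh2 went the other way. XX germ cells had Cdh2 levels of 6.76, 6.54 and 6.51 at E11.5, 6.93, 7.17 and 7.28 at E12.5 and 7.91, 7.61 and 7.86 at E13.5. XY germ cells stayed between 6.39 and 6.81 on all 9 arrays. At E13.5 Cdh2 was 2.32-fold lower in XY than in XX germ cells (adjusted p = 3.46e-09), without overlap. Cdh1, Cdh3 and Cdh2 were the 3 members called between sexes at E13.5, 10.3% of those tested, where 11.8% of all clusters were called. The mean of the 5 Sertoli genes was also higher in XY germ cells without overlap. It was 6.76 to 6.91 against 6.10 to 6.21 at E12.5 and 6.84 to 7.10 against 6.12 to 6.25 at E13.5. So was that of 6 mesonephric epithelium genes, with 7.478 to 7.573 against 7.255 to 7.296 and then 7.314 to 7.448 against 7.031 to 7.095. Of these 6 genes, Epcam was enriched in germ cells in all 6 combinations of sex and stage and Lhx1 in 5. The part of either mean in the cadherin differences was not tested.

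No member was called between XX and XY germ cells by limma at E11.5, where 0.131% of all clusters were called and 0 members had an unadjusted p under 0.05. At E12.5, where 2.66% of all clusters were called, none was called either, and 3 members had an unadjusted p under 0.05. These were again Cdh1 (0.37 ± 0.11, log2, XY minus XX, SE, adjusted p = 0.0354), Cdh2 (-0.53 ± 0.15, adjusted p = 0.0197) and Cdh3 (0.42 ± 0.16, adjusted p = 0.158), each without overlap. Cdh1 and Cdh2 missed the fold limit alone, and Cdh3 missed both limits. From E11.5 to E13.5, Cdh1 fell 1.96-fold (adjusted p = 3.1e-10) and Cdh3 2.26-fold (adjusted p = 5.27e-08) in XX germ cells, and Cdh2 rose 2.28-fold (adjusted p = 4.22e-09). That comparison called 14.9% of all clusters. In XY germ cells, where 9.63% were called, Pcdh1, a delta-1 protocadherin, was the single member, with a 1.69-fold fall (adjusted p = 0.000578). The change of the sex difference between the stages was itself called for Cdh1, Cdh2 and Cdh3, and for 7.84% of all clusters.

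**Figure D2:**
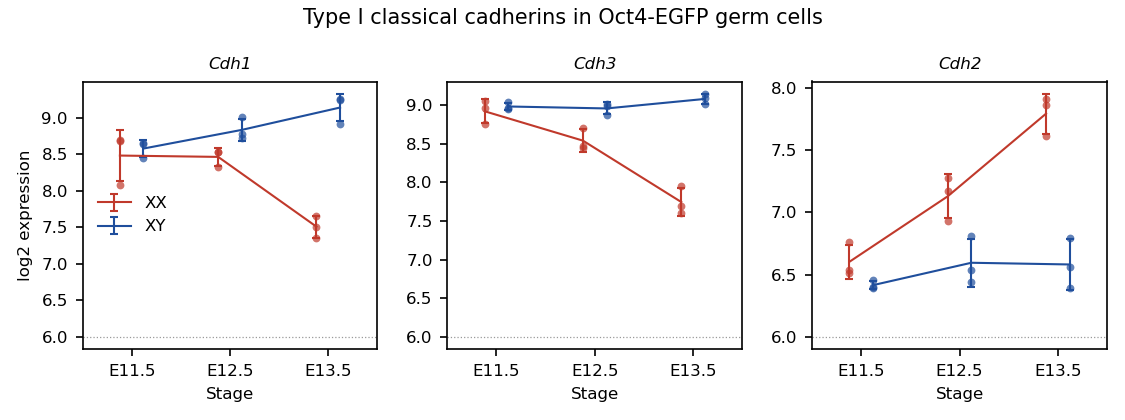
Log2 expression (vertical axis) of Cdh1, Cdh3 and Cdh2 in Oct4-EGFP germ cells at each stage (horizontal axis), with 1 point per array and lines joining the means with their SD (n = 3) for XX (red) and XY (blue); the dotted line marks the limit of 6. At E13.5 the XX and XY arrays are apart for all 3 genes, with Cdh1 means of 7.51 and 9.14.

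Other members were low in germ cells. Cdh11, Cdh2 and Pcdh18 were each depleted, meaning called lower than in each of the other 3 populations, in 5 of 6 combinations, and Pcdh7 in 3. No member was depleted in all 6, where 2.09% of all clusters were, also at unadjusted p-values (limma). The combination missing was E13.5 XX for Cdh2, E12.5 XY for Cdh11, where XY supporting cells were as low (6.72 against 6.59), and E11.5 XY for Pcdh18. In the last, XY endothelial arrays read 7.19, 6.16 and 8.19, and without endothelial replicate 2 Pcdh18 was depleted in all 6. In E12.5 XX germ cells replicate 3 was the high array for Cdh11 (6.55, 5.93 and 7.76) and for Pcdh18 (6.26, 6.17 and 7.54). The mean of 6 interstitial/stromal markers on these arrays was 6.72, 6.45 and 6.84, and its part in those values was not tested.

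Supporting cells had the most members called between sexes. At E11.5, 7 of 29 members were called (24.1%), where 6.16% of all clusters were. Higher in XX cells were the protocadherins Pcdh18, Pcdh11x, Pcdh20 and Pcdh7 and the type II cadherin Cdh9, and higher in XY cells were Cdh10 and Cdh2. In the same comparison the median size of the difference was 0.0859 over the members and 0.126 over all clusters (log2).

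Pcdh18 had the widest difference. XX supporting cells read 10.67, 10.68 and 10.82 at E11.5, 11.05, 11.08 and 11.16 at E12.5 and 10.71, 10.83 and 10.72 at E13.5. XY supporting cells read 8.76, 9.06 and 9.15 at E11.5, 6.68, 7.07 and 7.18 at E12.5 and 6.60, 6.92 and 7.17 at E13.5. The XX arrays lay within a narrow band, and no XX array overlapped with XY at any stage. XY cells were 3.33-fold lower at E11.5 (adjusted p = 0.000365), 17.4-fold lower at E12.5 (adjusted p = 2.8e-14) and 14.5-fold lower at E13.5 (adjusted p = 3.32e-13). Within XY cells Pcdh18 fell 4.27-fold from E11.5 to E13.5 (adjusted p = 7.27e-06), across the change of reporter.

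Pcdh11x, an X-linked delta-1 protocadherin, was high at E11.5 and fell in both sexes. XX supporting cells had levels of 9.41, 9.28 and 9.51 at E11.5, 7.75, 6.34 and 6.79 at E12.5 and 6.29, 6.19 and 6.02 at E13.5. XY supporting cells had levels of 7.67, 8.35 and 8.57 at E11.5, 5.87, 5.56 and 5.80 at E12.5 and 5.02, 5.06 and 5.41 at E13.5. XX arrays were above XY arrays at each stage, by 2.30-fold, 2.33-fold and 2.00-fold (adjusted p = 4.39e-05, 8.7e-06 and 0.000207). The fall from E11.5 to E13.5 was 9.39-fold in XX and 8.18-fold in XY cells, and the XY fall ended below 6, the limit used in the filter.

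In supporting cells the group means of Pcdh20 passed 6 at E11.5 and at no later stage. It read 7.80, 8.30 and 8.50 in XX and 5.94, 6.86 and 7.30 in XY cells, a 2.82-fold difference without overlap (adjusted p = 1.21e-08). At E12.5 it read 5.29, 5.23 and 5.46 in XX and 4.99, 4.97 and 4.88 in XY cells, and it was lower still at E13.5. The falls of 7.83-fold in XX and 3.53-fold in XY cells by E13.5 thus end below 6, the limit used in the filter.

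Cdh9 passed 6 in E11.5 XX supporting cells, with 7.53, 7.27 and 7.83, and in no other group mean of the 4 main populations. It thus passed the filter by the group in which it was high, so its calls are not independent of the filter. XY cells of that stage read 5.84, 5.84 and 5.86 (3.24-fold lower, adjusted p = 2.54e-15), without overlap. At E12.5 the difference was 1.52-fold (adjusted p = 2e-04), and it fell under the fold limit without XX replicate 1, XX replicate 3 or XY replicate 3. Pcdh7 read 7.27, 7.55 and 8.37 in XX and 6.51, 6.97 and 6.88 in XY cells at E11.5 (1.92-fold lower in XY, adjusted p = 0.00103), and without XX replicate 3 it was not called (adjusted p = 0.0666). At E12.5 Pcdh7 was 1.93-fold lower in XY (5.49, 5.66 and 5.55 against 6.57, 6.30 and 6.67, adjusted p = 0.000294).

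The promoters of Cdh9, Pcdh20 and Pcdh7 are shown because these genes shared a direction between sexes and fell in both, with Pcdh18 as the gene of the widest sex difference and Cdh10 as one that ran opposite between sexes. Sequences are from RefSeq (GRCm38.p6), 250 bases before to 50 bases after the start, 5′ to 3′ on the gene's strand, with CG dinucleotides in capitals. Pcdh18 lies at chr3:49757267-49757566 (minus strand), Cdh9 at chr15:16728665-16728964 (plus strand), Pcdh20 at chr14:88471347-88471646 (minus strand), Pcdh7 at chr5:57717831-57718130 (plus strand) and Cdh10 at chr15:18820079-18820378 (plus strand).
Pcdh18: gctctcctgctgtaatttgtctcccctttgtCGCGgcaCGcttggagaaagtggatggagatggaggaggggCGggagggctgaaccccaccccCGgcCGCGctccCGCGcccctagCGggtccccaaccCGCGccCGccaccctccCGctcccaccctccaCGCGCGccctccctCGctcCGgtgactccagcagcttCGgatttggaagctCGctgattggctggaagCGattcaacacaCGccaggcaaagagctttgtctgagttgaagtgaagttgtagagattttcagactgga
Cdh9: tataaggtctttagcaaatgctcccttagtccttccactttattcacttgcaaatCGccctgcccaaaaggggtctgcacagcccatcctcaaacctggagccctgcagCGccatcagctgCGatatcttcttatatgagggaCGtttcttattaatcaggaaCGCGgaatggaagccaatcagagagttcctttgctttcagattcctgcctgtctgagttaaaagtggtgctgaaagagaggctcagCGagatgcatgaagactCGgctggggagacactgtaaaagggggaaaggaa
Pcdh20: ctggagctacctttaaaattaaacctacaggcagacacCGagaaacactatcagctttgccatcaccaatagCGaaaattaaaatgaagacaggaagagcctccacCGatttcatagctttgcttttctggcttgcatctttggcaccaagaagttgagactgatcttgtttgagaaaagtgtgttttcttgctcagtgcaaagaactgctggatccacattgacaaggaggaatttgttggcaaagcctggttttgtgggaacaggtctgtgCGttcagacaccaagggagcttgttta
Pcdh7: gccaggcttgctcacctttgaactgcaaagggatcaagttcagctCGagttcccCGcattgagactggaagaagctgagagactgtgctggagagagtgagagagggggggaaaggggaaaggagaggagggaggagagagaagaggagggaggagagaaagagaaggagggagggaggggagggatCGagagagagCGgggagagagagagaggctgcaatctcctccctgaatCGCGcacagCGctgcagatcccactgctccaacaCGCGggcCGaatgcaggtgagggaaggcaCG
Cdh10: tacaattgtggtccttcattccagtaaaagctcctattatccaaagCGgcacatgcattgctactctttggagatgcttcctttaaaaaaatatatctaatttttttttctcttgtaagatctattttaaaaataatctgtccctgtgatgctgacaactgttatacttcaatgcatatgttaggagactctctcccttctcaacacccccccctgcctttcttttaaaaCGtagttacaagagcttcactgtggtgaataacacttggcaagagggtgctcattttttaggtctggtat
Pcdh18 held 23 CG dinucleotides, Pcdh7 held 11, Cdh9 held 8, Pcdh20 held 4 and Cdh10 held 2, against a median of 7 over all 32851 promoters of the table. Of the 34 members, 22 had a promoter there, 25 promoters in all. The core letters bound by SOX proteins, AACAAT, searched on both strands like the others, were in 0 of the 25 and in 10.7% of all promoters. The Nr5a1 letters AAGGTCA were in 1 of the 25 (Cdh18) and in 4.72% of all. The E-box CACCTG was in 5 (Pcdh7, Pcdh15 and all 3 promoters of Cdh7) and in 20.2% of all. None of these motifs contains another, and a match is a description of the sequence.

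Both members that were higher in XY supporting cells at E11.5 are classical cadherins. Cdh2 read 7.56, 7.78 and 7.85 in XX and 8.80, 9.09 and 8.93 in XY cells at E11.5 (2.31-fold, adjusted p = 8.51e-09), without overlap. By E12.5 XX cells read 9.003, 8.773 and 9.100 and XY cells 9.193, 9.132 and 9.048, and the arrays overlapped. Cdh10 read 5.40, 5.65 and 5.80 in XX and 6.26, 7.76 and 8.63 in XY cells at E11.5 (3.82-fold, adjusted p = 8.35e-07). The 3 XY arrays were far apart, and the group means of both sexes were under 6 thereafter. The p-value rests on a spread shared by all 24 groups and does not measure the scatter of these arrays. The mean of the 5 Sertoli genes on these E11.5 XY arrays was 8.93, 8.75 and 8.44, in the reverse order of Cdh10, Pcdh20, Pcdh11x and Pcdh18. That of the interstitial/stromal markers was 7.47, 7.49 and 7.61, in the same order as these members. On the E11.5 XX arrays it was lower, with 7.33 to 7.44, without overlap. The part of either mean in the spread of these members, or in the sex differences at E11.5, was not tested.

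At the later stages 9 of 29 members were called at E12.5 (31%), where 16.6% of all clusters were, and 5 at E13.5 (17.2%), where 16% were. Among the E12.5 calls, Cdh9, Cdh12 and Cdh18 were each lost when single arrays were left out. Cdh23, known from hair cell tip links, read 6.68, 6.40 and 6.64 in XX and 6.71, 6.41 and 6.43 in XY cells at E11.5. At E12.5 it read 6.69, 6.75 and 6.50 in XX and 8.07, 8.34 and 8.17 in XY cells, and at E13.5 6.97, 6.82 and 7.18 and 8.11, 7.83 and 8.10. XY cells were thus 2.92-fold higher at E12.5 (adjusted p = 6.25e-16) and 2.03-fold higher at E13.5 (adjusted p = 5.95e-10), without overlap. Cdh3 was 1.84-fold higher in XY at E12.5 (8.84, 8.97 and 8.97 against 8.37, 7.90 and 7.87, adjusted p = 1.42e-05). It was 1.97-fold higher at E13.5 (8.74, 8.67 and 8.53 against 7.58, 7.87 and 7.55, adjusted p = 1.89e-06), again without overlap.

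Pcdh9, a delta-1 protocadherin, was called higher in XY supporting cells at E13.5, with 7.04, 7.08 and 7.08 against 6.25, 6.27 and 6.18 (1.78-fold, adjusted p = 0.000299). The 4 Leydig genes were all higher in the same XY arrays, with a mean of 6.92 to 7.27 against 5.72 to 5.84, and their part in the Pcdh9 difference was not tested. Cdh11 was 4.28-fold lower in XY than in XX cells at E12.5 (6.68, 7.06 and 6.42 against 8.89, 8.64 and 8.92, adjusted p = 2.16e-05). At E13.5 its difference of -0.97 ± 0.39 (log2, SE) missed the threshold (adjusted p = 0.0556), although the arrays did not overlap.

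Cdh12 and Cdh18, type II cadherins on chromosome 15 like Cdh9 and Cdh10, were called lower in XY cells at E12.5, but the arrays overlapped. Cdh18 read 5.40, 8.72 and 5.52 in XX and 5.45, 5.46 and 5.50 in XY cells, so that the call rested on XX replicate 2. Without that array the difference was 0.0082 (log2, adjusted p = 0.984). Cdh12 read 6.57, 7.56 and 4.69 in XX and 4.87, 4.84 and 4.80 in XY cells, and without XX replicate 2 it was not called (adjusted p = 0.106). Cdh12 was scattered in other XX groups too, with 7.22, 5.30 and 5.86 in E11.5 supporting and 6.26, 7.13 and 5.04 in E12.5 stromal cells.

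Between E11.5 and E13.5, XX supporting cells had 5 members called, where 7.2% of all clusters were. Cdh2 rose 2.12-fold (adjusted p = 8.63e-08), and Pcdh20, Pcdh11x, Cdh9 and Pcdh7 fell. XY supporting cells had 8, where 11.9% were. Cdh23 rose 2.82-fold, and those 4 fell together with Cdh10, Pcdh18 and Cdh11, of which Cdh11 was not called without E11.5 XY replicate 3 (adjusted p = 0.0521). From E11.5 to E13.5 the mean of the interstitial/stromal markers went from 7.371 to 6.868 in XX and from 7.524 to 7.022 in XY supporting arrays, without overlap. In XY that of the Leydig genes went from 6.166 to 7.134. Their part in the stage changes was not tested. The change of the sex difference between the stages was called for 7 of 29 members and for 11% of all clusters. No member was enriched in supporting cells in all 6 combinations, where 0.161% of all clusters were, or depleted, where 0.0713% were, and none was at unadjusted p-values (limma). Cdh23 was enriched in 4 of 6 and Cdh2 in 3 of 6.

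**Figure D3:**
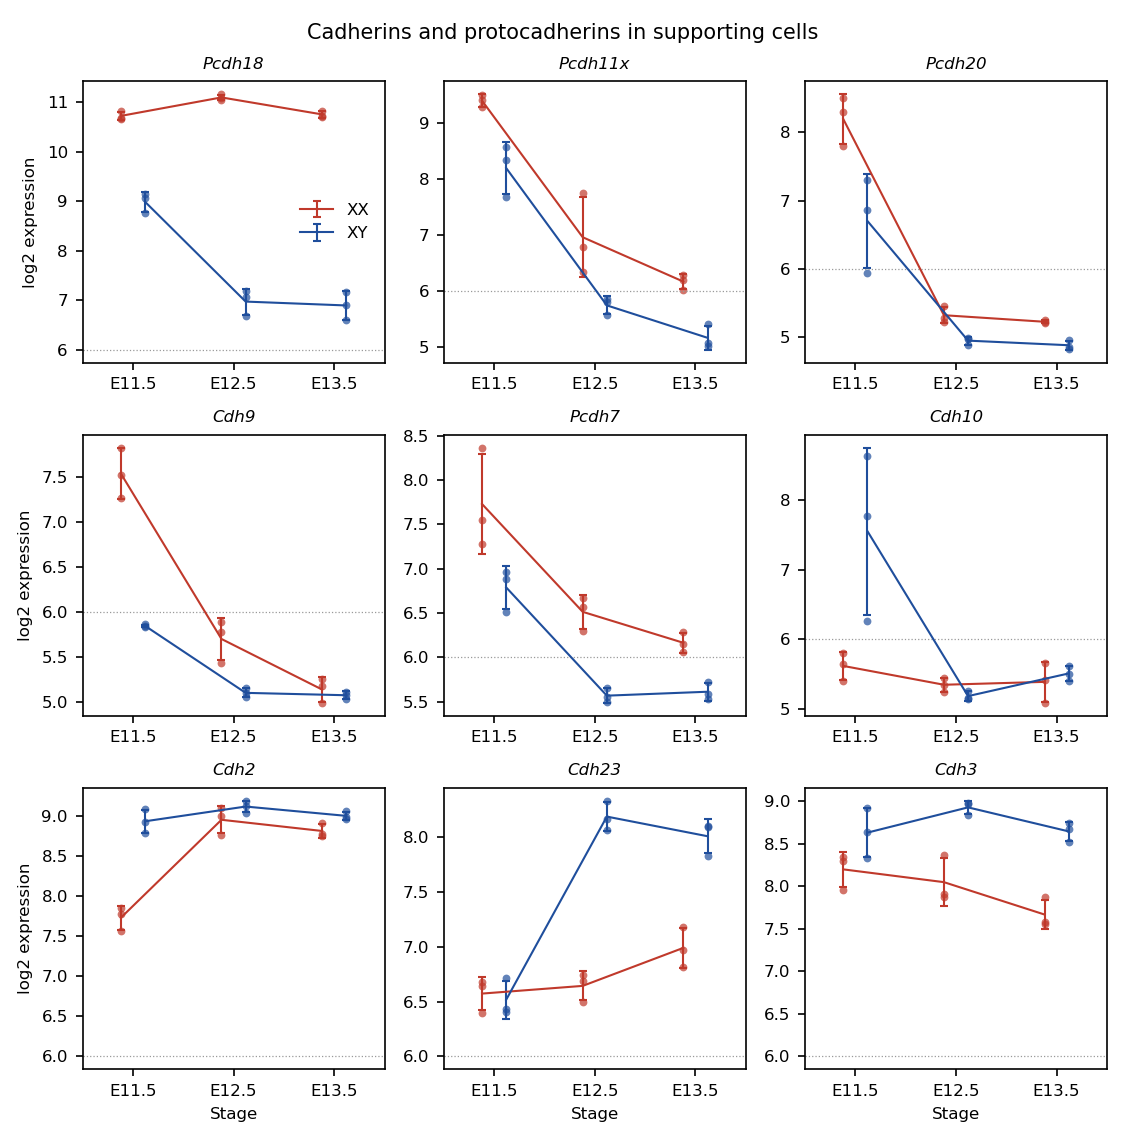
Log2 expression (vertical axes, each with its own range) of 9 members in supporting cells at each stage, with 1 point per array and lines joining means with their SD (n = 3) for XX (red, Sry-EGFP) and XY (blue, Sry-EGFP at E11.5 and Sox9-ECFP later); the dotted line marks the limit of 6. Pcdh18 has an E13.5 mean of 10.75 in XX and 6.90 in XY, Pcdh11x, Pcdh20, Cdh9 and Pcdh7 fall in both sexes, and Cdh23 and Cdh3 are higher in XY from E12.5.

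Interstitial and stromal cells were marked by Cdh11. It was the 1 member enriched there in all 6 combinations, where 0.404% of all clusters were. Its pairwise folds ran from 4.16 to 33.5, with adjusted p-values of at most 7.81e-05. The 18 interstitial/stromal arrays read from 10.44 to 11.54 with a median of 11.06, and the highest array of the other 3 main populations, an E13.5 XY endothelial array, read 10.28. No sex difference of Cdh11 was called in these cells. No member was depleted in all 6 combinations, also at unadjusted p-values (limma), and 0% of all clusters were.

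Cdh6, a type II cadherin known from the embryonic kidney, was called between XX stromal and XY interstitial cells at every stage. XX arrays read 8.57, 8.88 and 9.43 at E11.5, 8.41, 7.98 and 8.60 at E12.5 and 8.26, 8.48 and 8.35 at E13.5. XY arrays read 7.79, 8.15 and 8.39 at E11.5, 7.57, 7.22 and 7.07 at E12.5 and 6.86, 7.31 and 7.21 at E13.5. XX was above XY without overlap each time, by 1.80-fold, 2.07-fold and 2.36-fold (adjusted p = 0.00536, 9.08e-06 and 1.54e-07). The E11.5 call was 1 of 29 members where 0.196% of all clusters were called, and it was lost without XX replicate 3 (adjusted p = 0.22) or XY replicate 1 (adjusted p = 0.124). At E13.5 Cdh6 was again the 1 member called, where 5.7% of all clusters were. The mean of 5 pre-granulosa genes (Fst, Wnt4, Foxl2, Bmp2 and Irx3, ± SD, n = 3) was also higher in XX arrays without overlap, with 7.89 ± 0.25 against 7.24 ± 0.11 at E11.5, 8.72 ± 0.32 against 7.03 ± 0.05 at E12.5 and 8.84 ± 0.27 against 7.07 ± 0.10 at E13.5. So was that of 5 surface epithelium genes from E12.5, with 7.64 to 7.86 against 7.18 to 7.37 and then 7.61 to 7.89 against 6.78 to 7.28. Their part in the Cdh6 difference was not tested.

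At E12.5, 4 members were called, where 4.13% of all clusters were. Besides Cdh6, Pcdh11x was lower in XY interstitial cells (6.47, 6.00 and 6.98 against 7.71, 7.49 and 7.88, 2.32-fold, adjusted p = 5.29e-05). Pcdh9 was higher in XY (8.37, 7.96 and 7.52 against 7.14, 7.46 and 7.01, 1.67-fold, adjusted p = 0.00596), and without XX replicate 3 or XY replicate 1 it was not called (adjusted p = 0.0528 and 0.146). Cdh23 was 1.54-fold higher in XY (6.65, 6.51 and 6.51 against 6.12, 5.94 and 5.76, adjusted p = 0.000208) and under the fold limit without either of the same 2 arrays. All 5 Sertoli genes and all 4 Leydig genes were higher in these XY arrays, while the pre-granulosa and surface epithelium means were lower, and their part in the Cdh23, Pcdh9 and Pcdh11x differences was not tested.

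With stage, Cdh10 fell in both sexes. XX stromal arrays read 8.09, 8.23 and 8.52 at E11.5, 5.75, 7.20 and 7.13 at E12.5 and 5.62, 5.55 and 5.77 at E13.5, a 6.22-fold fall over the 3 stages (adjusted p = 7.78e-10). XY interstitial arrays read 7.36, 7.95 and 8.64 at E11.5, 5.97, 5.81 and 5.98 at E12.5 and 5.75, 5.27 and 5.66 at E13.5, a 5.38-fold fall (adjusted p = 2.68e-09). Both Cdh10 falls ended below the limit of 6. Pcdh20 fell 3.22-fold in XX and 2.56-fold in XY, also ending below that limit. Cdh6 fell 1.98-fold in XY and 1.51-fold in XX, and the latter was lost without E11.5 XX replicate 3 (adjusted p = 0.354) or without E13.5 XX replicate 1 or 3 (adjusted p = 0.097 and 0.0581). Pcdh7 fell 2.44-fold in XX, and in XY Pcdh11x fell 1.90-fold and Pcdh9 rose 1.74-fold. Over the same stages the XY mean of the Leydig genes went from 5.77 to 9.89 and that of the interstitial/stromal markers from 8.85 to 9.66. In XX the pre-granulosa mean went from 7.895 to 8.842. Their part in the stage changes was not tested. The XX comparison called 4 of 29 members and 4% of all clusters, and the XY comparison 5 and 4.89%. No member had a called change of the sex difference (limma), where 3.02% of all clusters did, and 4 had an unadjusted p under 0.05.

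**Figure D4:**
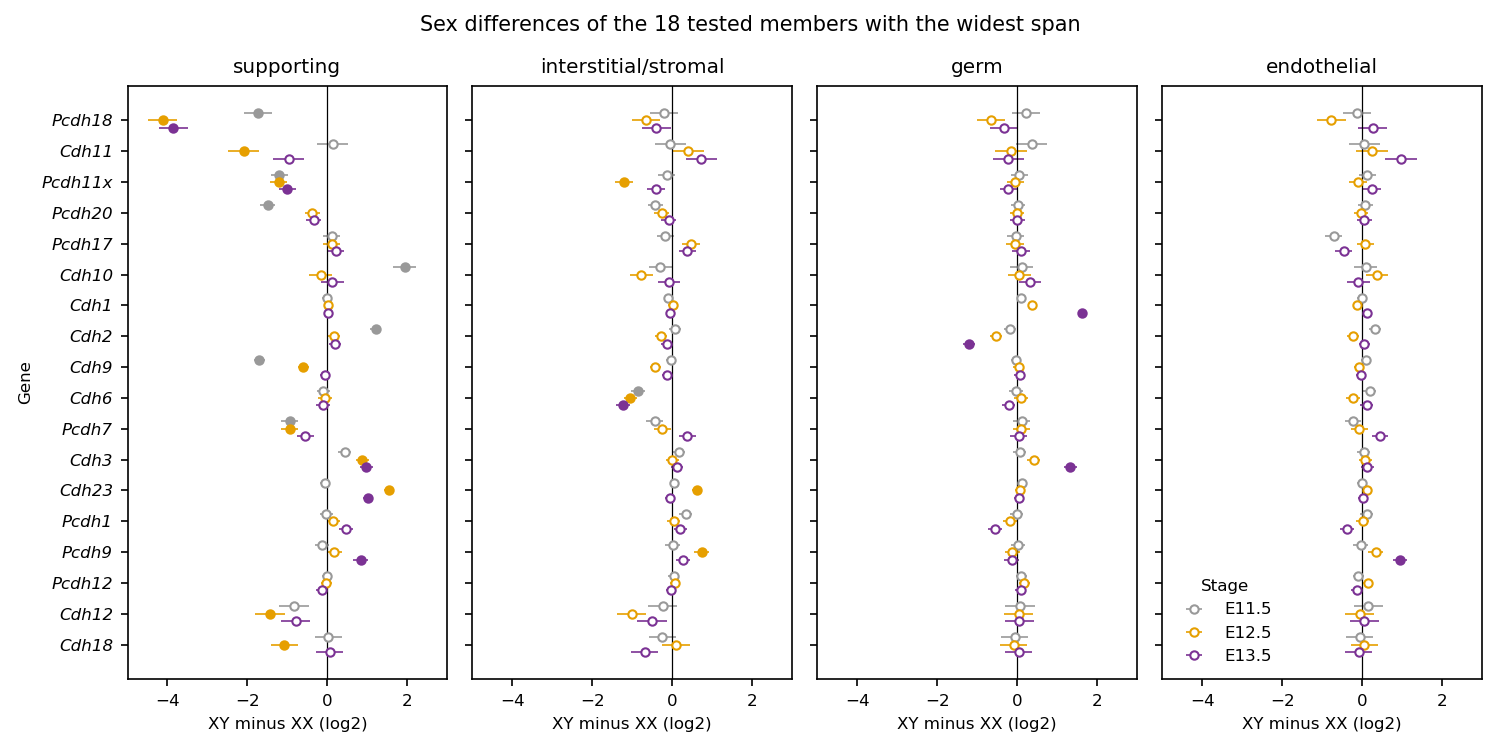
Difference between XY and XX (log2, horizontal axis, points with SE) at E11.5 (grey), E12.5 (orange) and E13.5 (purple) in each of the 4 main populations, for the 18 tested members with the widest span over group means (vertical axis). Filled points passed an adjusted p of 0.05 and a fold of 1.5. Cdh6 is to the left at all 3 stages in interstitial/stromal cells, Pcdh18 lies at -4.12 in supporting cells at E12.5, and Cdh1, Cdh3 and Cdh2 are apart in germ cells at E13.5.

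Endothelial cells were marked by 3 protocadherins and by low Cdh3. Pcdh17, Pcdh12 and Pcdh1 were enriched in all 6 combinations, 10.3% of the members tested, where 1.88% of all clusters were. Pcdh17, a delta-2 protocadherin, read from 8.70 to 10.58 with a median of 10.24 on the 18 endothelial arrays, against at most 8.31 on arrays of the other 3 populations, with pairwise folds of 4.27 to 9.01. Its lowest endothelial value was XY replicate 2 at E11.5, where XY arrays read 10.55, 8.70 and 9.56. The mean of 7 macrophage and blood markers on those arrays was 8.78, 7.11 and 7.75, in the same order, and its part was not tested. The study's methods describe a low amplification yield for a sample of this group, without naming the replicate. Pcdh12, known from endothelium, read from 6.92 to 8.02 against at most 6.60 elsewhere, with folds of 1.57 to 2.99. Pcdh1 read from 6.64 to 7.94 against at most 6.55 elsewhere, with folds of 1.503 to 4.10.

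In the same sort 6 of the 7 macrophage and blood markers (Ptprc, Csf1r, Adgre1, Cx3cr1, Aif1 and Hba-x) were enriched in all 6 combinations and Hbb-bh1 in 4. Their mean was 6.84 to 8.78 on the endothelial arrays and at most 6.31 in the other 3 populations, and its part in the enrichment of the protocadherins and the low Cdh3 was not tested.

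The smallest folds of Pcdh1 and Pcdh12 were close to the limit of 1.5. Pcdh1 was not enriched in all 6 combinations without E11.5 XX endothelial replicate 1, XY endothelial replicate 1, or XX germ replicate 1 or 2, nor Pcdh12 without E11.5 XY endothelial replicate 1 or XY supporting replicate 2. Pcdh17 stayed enriched without any single array. Cdh3 was depleted in endothelial cells in all 6 combinations, where 0.113% of all clusters were. It read from 6.35 to 7.36 there and no lower than 7.55 on arrays of the other 3 populations, with folds of 2.06 to 5.00.

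Few sex differences were called in endothelial cells. By limma there was no member at E11.5, where 0.589% of all clusters were called, or at E12.5, where 1.86% were, and 3 and 2 members had an unadjusted p under 0.05. At E13.5, 2 members were called, where 3.53% of all clusters were. Pcdh9 was 1.93-fold higher in XY (7.58, 8.10 and 6.79 against 6.56, 6.33 and 6.74, adjusted p = 0.00029), without overlap. Cdh8, a type II cadherin, was 1.59-fold higher in XY (6.51, 6.26 and 6.05 against 5.50, 5.62 and 5.68, adjusted p = 2.58e-08), at levels near the limit of 6, and fell under the fold limit without XY replicate 1 (log2 difference 0.55). These XY arrays, the group in which Cdh8 was highest, let it pass the filter, so its call is not independent of the filter.

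Markers of several other cells moved with these values. The 4 Leydig genes were all higher in XY endothelial arrays at E13.5, and 3 of 6 interstitial/stromal markers were. The mean of the 7 macrophage and blood markers was 7.79 to 8.49 in XY and 6.84 to 7.42 in XX arrays, that of the Sertoli genes 6.60 to 6.87 and 6.34 to 6.42, and that of the pre-granulosa genes 7.19 to 7.30 and 7.64 to 8.17, each without overlap. The mean of the interstitial/stromal markers on the XY arrays was 8.03, 8.65 and 7.29, in the same order as Pcdh9, as Cdh11 (9.20, 10.28 and 7.67) and as Pcdh18 (8.75, 9.49 and 7.75). On the XX arrays it was 7.21, 6.90 and 7.65. Their part in the differences was not tested.

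From E11.5 to E13.5, XX endothelial cells had 2 members called, where 2.47% of all clusters were. Part of the mesonephros was kept in the E11.5 sorts alone, so that stage and dissection cannot be told apart here in either sex. Pcdh7 fell 2.52-fold (7.12, 7.30 and 7.39 to 5.84, 5.91 and 6.06, adjusted p = 1.32e-05). Pcdh1 rose 1.59-fold (adjusted p = 0.0106), and was not called without E11.5 XX replicate 2 or 3 or E13.5 XX replicate 2 (adjusted p = 0.107, 0.11 and 0.0765). XY endothelial cells had 4, where 6.85% were. Over the same stages their mean over the 4 Leydig genes went from 5.655 to 10.71, and its part in these calls was not tested. Pcdh9 rose 2.31-fold (adjusted p = 2.35e-06), while Cdh11, Pcdh18 and Pcdh7 were called with overlapping arrays. Cdh11 was not called without any 1 of 5 of the 6 arrays, with adjusted p-values of 0.0518 to 0.392. Pcdh18 was not called without replicate 2 of E11.5 or of E13.5 (adjusted p = 0.11 and 0.0724), nor Pcdh7 without replicate 1 or 3 of either stage (adjusted p of 0.06 to 0.282). The change of the sex difference was called for Cdh8 and Pcdh9, and for 2.39% of all clusters.

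**Figure D5:**
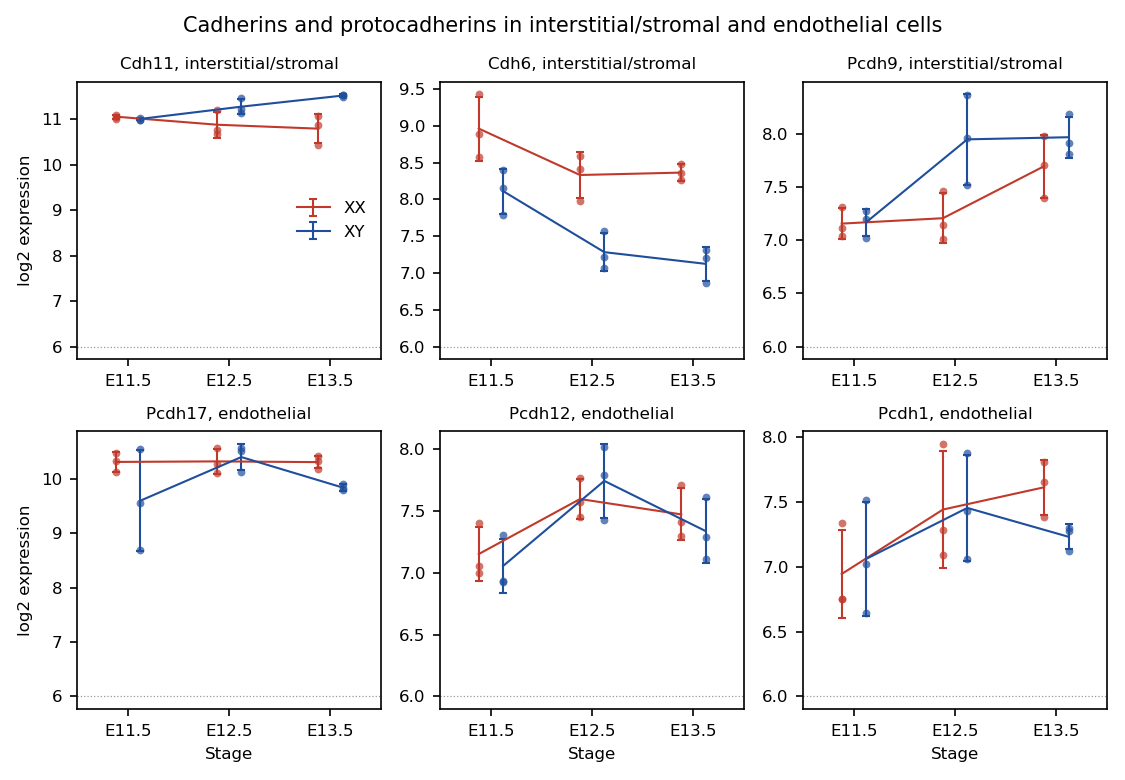
Log2 expression (vertical axes, each with its own range) by stage of Cdh11, Cdh6 and Pcdh9 in interstitial/stromal cells and of Pcdh17, Pcdh12 and Pcdh1 in endothelial cells, with 1 point per array and lines joining means with their SD (n = 3) for XX (red) and XY (blue); the dotted line marks the limit of 6. Cdh6 is lower in XY at all 3 stages, and the XY arrays of Pcdh17 at E11.5 read 10.55, 8.70 and 9.56.

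The αSma-EYFP population was tested in a model of all 90 sorted-cell arrays with 16859 clusters. Its Cdh11 level was 10.53 to 11.68 and its Pcdh18 level 10.31 to 11.05 on the 18 arrays. Between sexes, no member was called at E11.5 (limma), where 0.231% of all clusters were, and 6 had an unadjusted p under 0.05. Cdh6 was 1.88-fold lower in XY at E12.5 (7.90, 7.66 and 8.37 against 8.73, 9.01 and 8.92, adjusted p = 8.17e-05) and 1.83-fold lower at E13.5 (8.28, 8.47 and 8.48 against 9.02, 9.38 and 9.45, adjusted p = 0.000153), without overlap. Cdh9 was 1.93-fold lower in XY at E12.5 (5.08, 5.03 and 5.01 against 6.19, 5.60 and 6.17, adjusted p = 6.42e-08), with all XY arrays under the limit of 6. The background was 3.55% at E12.5 and 3.8% one day later. In the same population the Sertoli gene mean was 7.33 to 8.24 in XY and 6.37 to 6.43 in XX arrays at E12.5, the Leydig gene mean was 8.32 to 8.54 and 5.66 to 5.79 at E13.5, and their part in these differences was not tested. The same holds for the pre-granulosa gene mean, which was higher in XX (± SD, n = 3), with 8.74 ± 0.13 against 7.05 ± 0.07 at E12.5 and 8.63 ± 0.05 against 7.11 ± 0.05 at E13.5. It also holds for the surface epithelium gene mean, with 8.31 to 8.37 in XX against 7.79 to 7.99 in XY at E12.5. At E13.5 that mean was 8.37 to 8.49 against 7.79 to 7.97. The interstitial/stromal marker mean was higher in XY, and its part was not tested either. It was 9.041 to 9.148 in XY against 8.335 to 8.623 in XX at E12.5, and 9.38 to 9.532 against 8.738 to 8.802 at E13.5.

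With stage, 6 members were called in XX αSma-EYFP cells, where 3.94% of all clusters were, and 3 in XY, where 5.97% were. Cdh10 fell 5.23-fold in XX (8.22, 8.04 and 8.32 to 5.84, 6.04 and 5.54) and 3.21-fold in XY (7.63, 8.09 and 8.08 to 6.07, 6.39 and 6.28). Pcdh20 fell in both sexes, by 2.69-fold in XX and 1.82-fold in XY. Pcdh9 rose in both, by 2.05-fold in XX (adjusted p = 4.89e-05) and 2.48-fold in XY (adjusted p = 1.63e-07). Over these stages the Leydig gene mean went from 6.68 to 5.72 in XX and from 6.42 to 8.43 in XY arrays. The interstitial/stromal marker mean went from 8.64 to 8.78 in XX and from 8.65 to 9.46 in XY arrays, without overlap. The part of either was not tested. In XX cells Pcdh11x fell 1.85-fold, Pcdh7 fell 2.51-fold and Cdh6 rose 1.99-fold (8.25, 8.32 and 8.30 to 9.02, 9.38 and 9.45, adjusted p = 1.95e-05). In XX stromal cells the Cdh6 change had the opposite sign, and the difference between these populations was not tested. The surface epithelium gene mean on the XX αSma-EYFP arrays was 7.93 to 8.25 at E11.5 and 8.37 to 8.49 at E13.5. Its part in the Cdh6 rise was not tested.

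Partners of the cadherins were read from lists of 13 catenins and relatives, 8 junction linkers and 7 repressors of E-cadherin, all of which were tested. p120 catenin (Ctnnd1) and plakoglobin (Jup) were depleted in germ cells in all 6 combinations, as were 2.09% of all clusters, with germ cell group means of 8.99 to 9.18 for Ctnnd1, against 10.25 to 10.55 in interstitial/stromal cells, and of 6.22 to 6.70 for Jup, against 8.10 to 8.85. In supporting cells at E13.5, 4 of 13 catenins were higher in XY and 0 lower, where 16% of all clusters were called, with a median difference of 0.0581 over the list and -0.0257 over all clusters (log2). Ctnna2, αN-catenin, was 5.16-fold higher in XY (adjusted p = 3.2e-21) and Ctnna3, αT-catenin, 3.40-fold higher (adjusted p = 1.27e-14). At E11.5 Ctnna3 was 1.65-fold lower in XY (adjusted p = 0.000357). At E13.5 in germ cells, 1 catenin relative was higher in XY (Pkp2, a plakophilin, 1.99-fold, adjusted p = 0.000508) and 1 lower (Ctnnal1, 1.90-fold, adjusted p = 0.000173), where 11.8% of all clusters were called.

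Of the 8 linkers, Magi1, a junction scaffold, was lower in XY supporting cells at E12.5 (3.23-fold, adjusted p = 1.94e-16) and E13.5 (2.42-fold, adjusted p = 4.18e-12). At E13.5 it was 1 of 2 linkers lower, with Lima1, an actin-binding protein (2.17-fold, adjusted p = 1.78e-10), where 16% of all clusters were called. Of the 7 repressors, Snai2, Zeb1 and Zeb2 were depleted in germ cells in all 6 combinations, the cells in which Cdh1 was enriched, with group means of 6.60 to 7.14, 8.01 to 8.55 and 5.95 to 6.27, where 2.09% of all clusters were. The other 4 (Snai1, Twist1, Twist2 and Tcf3) were depleted in none, and Tcf3 had group means of 8.76 to 9.05 in germ cells against 8.38 to 8.78 in supporting cells. Zeb2 was 2.13-fold higher in XY interstitial than in XX stromal cells at E13.5 (adjusted p = 9.28e-06) and 2.49-fold higher in XY endothelial cells (adjusted p = 2.74e-07), in arrays where the Leydig genes were also higher.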

How the data were processed

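RNA of the sorted cells was amplified with a whole-transcript kit (Nugen WT-Ovation Pico) and hybridised to Affymetrix Mouse Gene arrays. The authors deposited log2 values for 35557 transcript clusters on 91 arrays, made in Partek Genomics Suite by robust multi-array averaging with probe sequence adjustment and quantile normalisation; which arrays were normalised together is not given in the sources used here, nor is a version of the scanning software GCOS, named in the submitters' processing notes. The Partek version was the one named in the study's methods. Array medians lay between 6.56 and 6.81, and the highest correlation between 2 arrays was 0.9952. An array of whole newborn mouse was not used. The reporter of the interstitial/stromal population is not reported here. The number of arrays limits the precision.

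The deposited log2 values were tested without further normalisation. limma 3.58.1 in R 4.3.3 (lmFit and eBayes, checked on simulated data) was fitted with 1 mean per group to 72 arrays of 24 groups (48 residual degrees of freedom, 16820 clusters of 15324 genes), and for αSma-EYFP to 90 arrays (60 residual degrees of freedom). The filter on low values followed the study's own. The SEs and p-values of a cluster rest on 1 spread shared by all groups of the model, not on the groups compared alone. P-values were adjusted by Benjamini-Hochberg within each comparison. Enrichment required calls against each of the other 3 populations of the same sex and stage. Members with array-level values were the 12 with the widest span and those called in at least 2 sex comparisons, beside every call discussed; Cdh8, Cdh12, Cdh18, Pcdh1, Pcdh12 and Pcdh17 outside that rule were given after their values were seen. The members and gene lists were chosen with earlier results of these data known. Names on the arrays can be old. The second clusters of Pcdh9, Cdh18, Pcdh15 and Cdh24 correlated with the chosen ones at 0.983, 0.786, 0.315 and 0.0941 over the arrays. Clusters that name several genes, 1621 in all, were left out.

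Arrays of XX and XY with the same replicate number were checked for shared deviations from the group means. Of 15 sets of population and stage, 1 (germ cells at E12.5) had all 3 correlations over 0.1, at 0.129, 0.135 and 0.208, and the range over all sets was -0.309 to 0.364. The alternatives were no filter, another set of arrays in the model, renewed quantile normalisation, averaged clusters, a trended robust spread, the study's limits (an unadjusted p under 0.05 with the same fold), a replicate block and leaving out each array.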

Additional observations from a re-analysis of the deposited data

Results flagged for a closer look

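For 12 pairs of member and population, the difference between XY and XX cells changed from E11.5 to E13.5 by limma's test of that change (adjusted p under 0.05 over all clusters and a fold over 1.5); values are log2, XY minus XX, with the SE of the change.

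In supporting cells, Cdh10 changed by -1.81 ± 0.40 (from 1.93 to 0.12, adjusted p = 0.000798) and Cdh2 by -1.02 ± 0.21 (from 1.21 to 0.19, adjusted p = 0.000269). Cdh10 was under the limit of 6 at E13.5 in both sexes, and in XX cells also at E11.5. Pcdh18 changed by -2.12 ± 0.51 (from -1.73 to -3.86, adjusted p = 0.00191). Cdh9 changed by 1.63 ± 0.18 (from -1.70 to -0.06, adjusted p = 7.1e-10) and Pcdh20 by 1.15 ± 0.26 (from -1.49 to -0.34, adjusted p = 0.00107), both genes being under the limit of 6 at E13.5. Cdh23 changed by 1.08 ± 0.17 (from -0.06 to 1.02, adjusted p = 3.29e-06) and Pcdh9 by 0.97 ± 0.26 (from -0.13 to 0.83, adjusted p = 0.0072). The reporter of XY supporting cells differs between these stages, and its part was not tested.

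In germ cells, Cdh1 changed by 1.53 ± 0.15 (from 0.10 to 1.63, adjusted p = 9.22e-11), Cdh3 by 1.27 ± 0.23 (from 0.06 to 1.33, adjusted p = 5.65e-05) and Cdh2 by -1.02 ± 0.21 (from -0.19 to -1.21, adjusted p = 0.000379). In endothelial cells, Cdh8 changed by 0.59 ± 0.12 (from 0.08 to 0.67, adjusted p = 0.00105) and Pcdh9 by 0.98 ± 0.26 (from -0.04 to 0.95, adjusted p = 0.023). Without single arrays the Cdh8 change went down to 0.47, under the fold limit, and the Pcdh9 change to 0.68 (adjusted p = 0.199). Cdh9 in supporting and Cdh8 in endothelial cells passed the filter by the group in which each was highest. The dissection of the endothelial sorts differed between these stages, and its part was not tested.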

How the results depend on the processing

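Of 88 called member values, all 88 kept direction and call without the filter, at the study's limits and with a trended robust spread, as did the 87 available with averaged clusters. With renewed quantile normalisation Cdh9 in supporting cells at E12.5 (-0.54) and Cdh23 in interstitial/stromal cells at E12.5 (0.58) fell under the fold limit. The replicate block changed 1 call, the change of the Pcdh9 sex difference in endothelial cells (0.98, adjusted p = 0.0556), so that 1 member in place of 2 was called there, and it changed no other call of a member.

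Counts of members called moved as follows. Without the filter, and with the 18 αSma-EYFP arrays alone in the model, the αSma-EYFP sex comparison at E13.5 gave 2. With 90 arrays the endothelial comparison at E11.5 gave 1. At the study's limits, the interstitial/stromal comparison at E13.5 gave 2 and its change of the sex difference 1, the endothelial comparisons at E11.5 and E12.5 gave 1 each, and the αSma-EYFP comparisons gave 1 at E11.5, 4 at E12.5 and 2 at E13.5.

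Leaving out each array in turn gave 0 to 1 members between sexes in endothelial cells at E11.5 (1 without XY replicate 1) and at E12.5 (1 without XX replicate 3), and 1 to 4 at E13.5 (1 without XY replicate 1, 4 without XY replicate 3). The endothelial stage comparison gave 1 to 2 in XX and 2 to 4 in XY, and the change of the endothelial sex difference 0 to 3 (0 without E13.5 XY replicate 1). Interstitial/stromal cells gave 0 to 1 at E11.5 (0 without XX replicate 3 or XY replicate 1), 2 to 5 at E12.5 (2 without XY replicate 1) and 0 to 2 for the change of the sex difference (2 without E11.5 XY replicate 3, 1 without E11.5 XX replicate 2). Germ cells gave 0 to 1 between sexes at E12.5 (1 without XX replicate 1 or XY replicate 3) and 1 to 2 for the XY stage comparison (2 without E11.5 XY replicate 2 or 3, or E13.5 XY replicate 1). Members enriched in endothelial cells in all 6 combinations numbered 1 to 3, and members depleted in germ cells 0 to 1. In supporting cells, calls lost without single arrays were Pcdh7 at E11.5, Cdh9, Cdh12 and Cdh18 at E12.5 and Cdh11 in the XY stage comparison. In XX stromal cells the Cdh6 stage call was lost too. Cdh18 in supporting cells at E12.5 ran from -1.65 to 0.0082 and reversed without XX replicate 2. The causes were not tested. Levels of Cdh8, Cdh9, Cdh10, Cdh12, Cdh18 and Pcdh20 lay near 6 in many groups, and the background signal of the arrays was not analysed here.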
